A study of Mus musculus with 778 samples.

Results

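Fully-grown oocytes (FGO) of wild-type ICR mice, isolated from the ovaries of females 3 to 4 weeks old and more than 70 μm in diameter, were compared according to how many RNA molecules had been counted in each of them. The counts are of unique molecular identifiers (UMIs), short random labels attached to cDNA before amplification. Copies of the same molecule thus count only once, and the UMI total of a cell is called its depth below. This total counts the molecules recovered, so the RNA content of an oocyte and the extent of its sequencing cannot be told apart in it. The deposited UMI counts held 223 single oocytes of 5 growth stages, of which 56 were FGO. These were divided at 800000 UMIs into 27 deep FGO with at least that number and 29 shallow FGO with fewer. The members were thus selected on a measured value, their own UMI total, and the difference in depth between them is not a finding. All the oocytes were picked by hand after washing to remove somatic cells, and the labels give no treatment, age or size that would set the deep and the shallow cells apart.

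The fully-grown oocyte has reached its final size before ovulation. It waits in prophase of the first meiotic division, where cyclic AMP keeps the kinase Cdk1 inactive. Transcription falls silent as the oocyte reaches full size and its chromatin condenses around the nucleolus. Maturation and the first steps of the embryo then depend on mRNAs that were made during growth, stored in the cytoplasm and translated or removed later, many of them through lengthening or shortening of their poly(A) tails. Diameter alone does not tell oocytes before this silencing from those after it, and the labels do not separate them.

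Deep FGO held between 820093 and 3828823 UMIs per cell (median 1553082), and shallow FGO between 61555 and 799864 (median 310918). The deep cells contributed 84.09% of the 64311908 UMIs of the stage. Nearest to the limit lay deep cells with 820093, 859898 and 868792 UMIs, and shallow cells with 799864, 784761 and 687410, so there was no gap in depth between the groups. The 56 cells came from up to 4 libraries, and 96 barcodes were each used in 2 or more of these libraries, so the library of a cell could not be told from its name. Depth was unevenly spread over the cell numbers: cells 1 to 10 held 0 deep and 10 shallow cells, cells 11 to 47 held 26 and 11, and cells 48 to 56 held 1 and 8. Whether these numbers follow libraries, plates or mice is not stated. Depth, library, animal and RNA content of the oocyte cannot be told apart. Each group was therefore treated as 1 pooled sample, without a test, p-value or standard error. Spread is given as the lowest, median and highest cell.

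**Figure D1:**
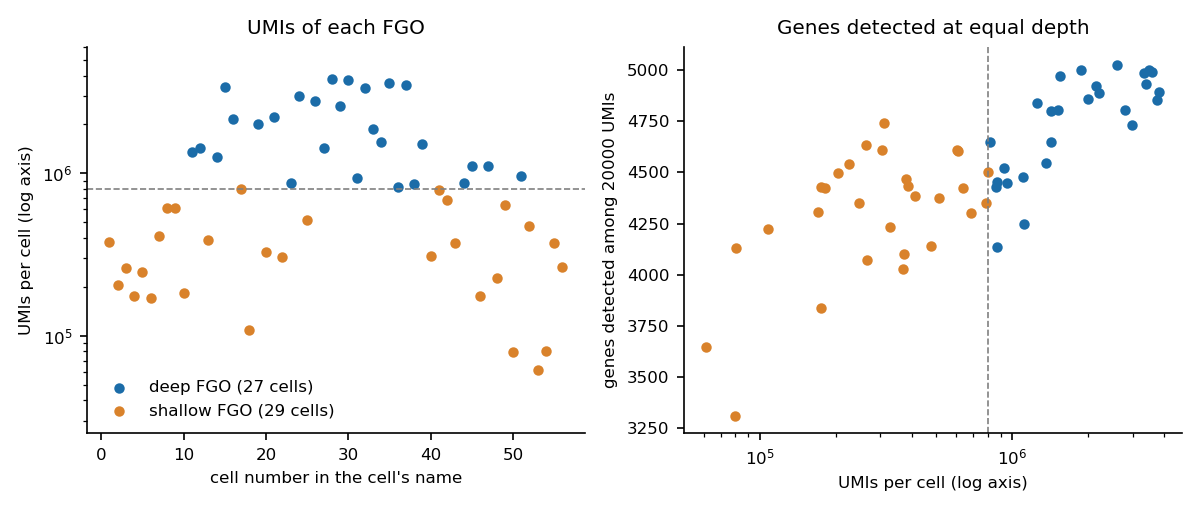
UMIs of each FGO against its cell number (left) and genes detected when every cell was thinned to 20000 UMIs against the UMIs of the cell (right); each point is 1 cell, blue for the 27 deep and orange for the 29 shallow FGO, and the dashed line is the limit of 800000 UMIs. None of the cells numbered 1 to 10 was deep, and at equal depth the deep cells held a median of 4807 genes against 4375.

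More genes were detected in deep FGO, also at equal depth. With all UMIs, 10217 to 13701 genes were detected per deep cell (median 12152) and 4974 to 10843 per shallow cell (median 9077), a count that depth itself raises. After every cell was thinned to 20000 UMIs, drawn at random without replacement, deep cells still held 4138 to 5027 genes (median 4807, SD 248) and shallow cells 3311 to 4742 (median 4375, SD 310). The medians differed by 432 genes, more than the SD within either group, and 7 shallow cells lay below the lowest deep cell, although the groups overlapped widely. At 50000 UMIs the medians were 6694 and 6106.

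The UMIs of shallow FGO were more concentrated in a few genes. At 20000 UMIs, the 10 most abundant genes of a cell took 6.21 to 10.5% of its UMIs in deep cells (median 7.62%) and 8.58 to 12.2% in shallow cells (median 9.46%). The 100 most abundant genes took 26.5% and 29.8% (medians). Counted levels also varied more between shallow cells. Over the 3009 genes with at least 50 CPM, the median coefficient of variation between thinned cells was 0.63 in deep and 0.71 in shallow FGO. It was higher in shallow FGO for 68.2% of these genes. In a cell thinned to 20000 UMIs, 50 CPM is 1 UMI, so counting error enters these values, and its part was not tested. CPM is the number of UMIs of a gene per 1000000 UMIs of the cell. It measures a share of the counted RNA and not an amount per oocyte, so a higher share of some genes lowers that of the rest.

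Levels were compared as the mean CPM over cells. A gene was called different at 2-fold or more between the means with at least 10 CPM in the higher group. Of 7454 genes at 10 CPM in either group, 681 were called, 523 of them higher in deep FGO (7.02% of the genes compared) and the rest higher in shallow FGO (2.12%). The median gene itself stood 0.20 higher in deep FGO on the log2 scale. With scaling factors, which take this shift out, the calls were balanced, with 263 higher in deep and 274 higher in shallow FGO under DESeq2 size factors, and 279 and 260 under TMM factors of edgeR. The share of calls that were higher in deep FGO thus fell from 76.8% to 48.98% and 51.8%. For this reason gene lists are given below relative to the median gene. Of the list members named below, Zar1l, H2afx, Psmd3, Sf3a2, Oas1f and Oog4 were no longer called under either set of factors, and Dusp1 was not under those of DESeq2. With cells thinned to 20000 UMIs, other named genes lost their call. H2afx, Dusp1, Ndufa1 and Eif4ebp1 then differed by less than 2-fold. Cbx7, Magea10 and Sf3a2 still differed by more than 2-fold but were under 10 CPM in both groups. Tspan6, Gpr3 and Oas1f fell short of both limits. The remaining named genes that had been called were called again. Most of the genes called were of low level: 89.5% of those higher in deep FGO and 72.8% of those higher in shallow FGO were under 100 CPM in both groups. Median log2 differences declined with level, from 0.27 among genes of 10 to 30 CPM to -0.10 among genes of 1000 CPM or more. No gene separated the groups: for 0 genes did every shallow cell lie below every deep cell, and for 0 genes above.

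**Figure D2:**
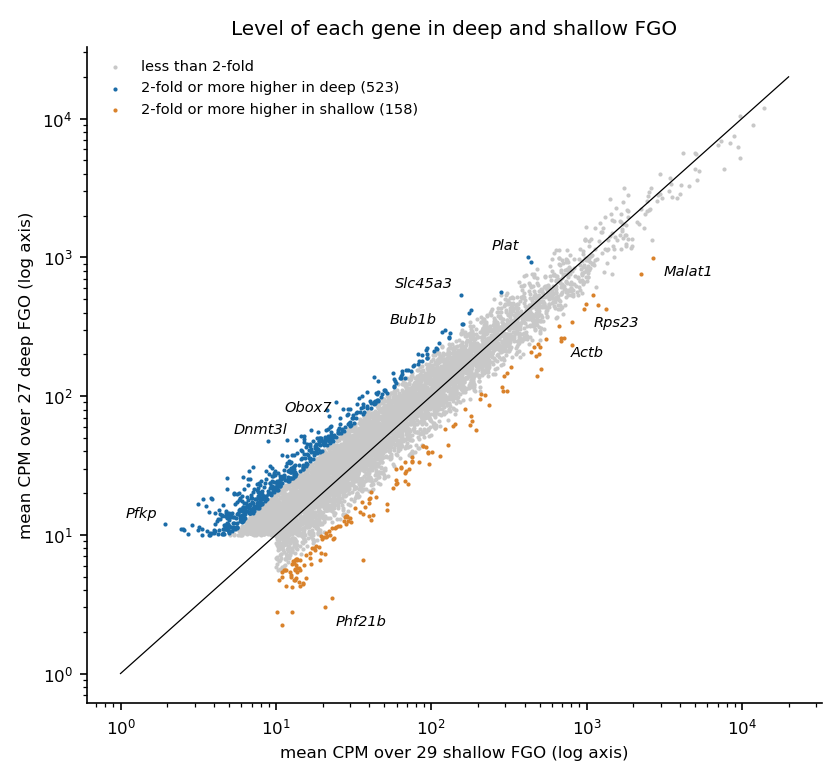
Mean CPM of each of the 7454 genes in the 27 deep FGO against that in the 29 shallow FGO, both on log axes; blue marks the 523 genes at least 2-fold higher in deep FGO, orange those at least 2-fold higher in shallow FGO, and the line marks equal levels. Among the named genes Plat, Slc45a3, Bub1b and Dnmt3l lie on the deep side, and Malat1, Actb and Rps23 on the shallow side.

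The 12 genes with the largest differences towards deep FGO were Pfkp, Gm15941, Tex26, Irf8, Tmem30b, Gpat3, Mbd3l2, Glis1, Cbx7, Ildr1, Magea10 and Usp11. All were of modest level, with means of 11.03 to 47.6 CPM in deep FGO. Pfkp, which encodes a phosphofructokinase of glycolysis (chromosome 13, 6579014 to 6648023, minus strand, build NCBIM37), lay between 1.08 and 27.2 CPM in deep cells (median 9.28) and between 0 and 18.5 in shallow cells (median 0, with 18 of 29 cells at 0). The means differed 6.13-fold. The ratio of the summed UMIs was 7.26 (95% exact interval 4.67 to 11.96), and such intervals cover counting error only. One shallow cell exceeded the deep median and 18 lay below the lowest deep cell.

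Irf8, a transcription factor best known from immune cells (chromosome 8, 123260258 to 123280594, plus strand), ranged from 0 to 43.1 CPM in deep cells (median 16.1) and from 0 to 16.2 in shallow cells (median 0), a 5.26-fold difference of the means. Glis1, a zinc finger transcription factor (chromosome 4, 107107196 to 107307666, plus strand), ranged from 0 to 61.5 CPM (median 13.5) and from 0 to 12.4 (median 1.94), 4.50-fold. Cbx7, a chromodomain subunit of Polycomb repressive complex 1 (chromosome 15, 79746237 to 79801549, minus strand), ranged from 0 to 29.3 CPM (median 10.2) and from 0 to 14.7 (median 0), 4.50-fold. The groups overlapped for each of these 3 genes, since some deep cells were at 0, but 0 to 2 shallow cells passed the deep median. Usp11, a deubiquitinase (X chromosome, 20281032 to 20297665, plus strand), did not fall to 0 in any deep cell: it lay between 7.90 and 69.3 CPM (median 25.9) in deep and between 0 and 25.8 (median 6.11) in shallow cells, 4.26-fold. At 1 UMI a cell of 61555 UMIs has 16.2 CPM, so a shallow cell at 0 does not show that the transcript was absent. Magea10 belongs to a repeated gene family, and its counts are uncertain where reads match several copies.

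Towards shallow FGO the 12 largest differences were those of Phf21b, 4932438H23Rik, Epcam, Tspan6, Gmeb1, Ankmy2, Pbld1, Rab33b, Uqcc3, Tmem132cos, E330020D12Rik and Tapbpl. Rab33b is a small GTPase of the Golgi (chromosome 3, 51287888 to 51299827, plus strand). It lay between 83.99 and 693 CPM in deep cells (median 175) and between 156.3 and 2645 in shallow cells (median 627), 3.42-fold higher by the means. The ratio of the summed UMIs was 3.45 (95% exact interval 3.35 to 3.56), and 27 of 29 shallow cells exceeded the deep median. Gmeb1, a DNA-binding regulator of transcription (chromosome 4, 131776940 to 131817517, minus strand), lay between 46.9 and 401 CPM in deep (median 107.04) and between 64.7 and 2958 in shallow cells (median 434), 3.46-fold higher. Phf21b, a PHD finger protein (chromosome 15, 84615806 to 84686559, minus strand), showed the largest ratio of means, 6.92, with 0 to 9.21 CPM in deep (median 2.21) and 0 to 119.9 in shallow cells (median 9.79). Epcam, an epithelial adhesion molecule (chromosome 17, 88035319 to 88050446, plus strand), differed 4.55-fold by the means, but its medians were only 2.10 and 4.89 CPM, and 10 shallow cells were at 0. Tmem132cos is named as a transcript opposite Tmem132c, and without strand in the counting, which is not stated, reads of the pair cannot be told apart.

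Among genes chosen after their values were seen, Malat1, Actb and Washc4 were strongly counted in both groups and took a larger share of the UMIs of shallow FGO. Malat1, a long non-coding RNA retained in the nucleus (chromosome 19, 5795690 to 5802671, minus strand), ranged from 276 to 3355 CPM in deep cells (median 662) and from 731 to 7759 in shallow cells (median 2216), 2.70-fold higher by the means. Actb, cytoplasmic β-actin (chromosome 5, 143664794 to 143668433, minus strand), ranged from 94.6 to 548 CPM (median 256) and from 280 to 1463 (median 603), 2.61-fold higher. For Malat1, Actb and Washc4 all 29 shallow cells exceeded the deep median, and 7, 17 and 13 of them exceeded the highest deep cell. In the opposite direction stood Slc45a3, a solute carrier (chromosome 1, 133867186 to 133879540, plus strand), with 75.97 to 1559 CPM in deep (median 403) and 56.5 to 447 in shallow cells (median 123.2), 3.46-fold. Grn, the precursor of granulins, had medians of 94.7 and 18.5 CPM, 3.75-fold by the means, and Steap4, a metalloreductase, 92.5 and 6.52 CPM, 3.72-fold. Nanog, a pluripotency factor, was 2.50-fold higher in shallow FGO, with medians of 10.8 and 21.4 CPM.

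**Figure D3:**
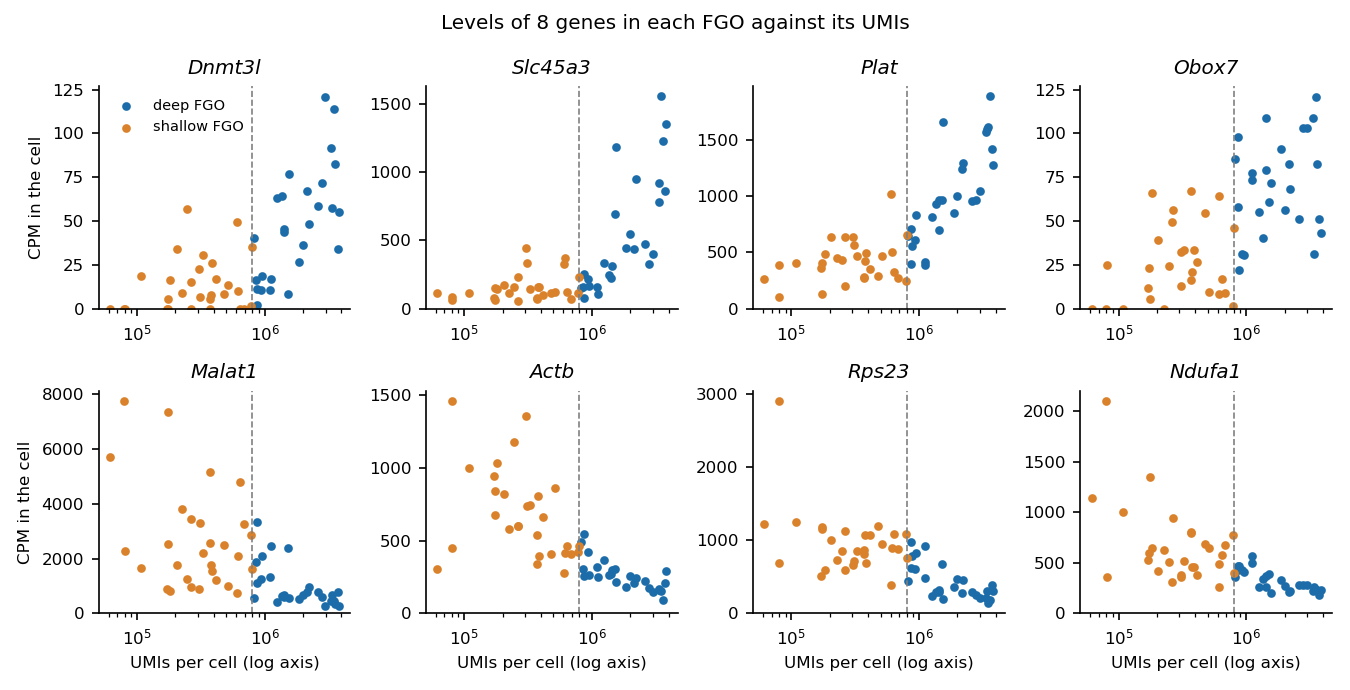
CPM of 8 genes in each FGO against the UMIs of the cell (log axis); blue points are deep and orange points shallow FGO, and the dashed line is the limit of 800000 UMIs. Slc45a3 and Plat reach 1559 and 1891 CPM among the deep cells, Malat1 reaches 7759 CPM among the shallow cells, and the 2 groups overlap in level in each panel.

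The mRNAs known to be translated during meiotic maturation included Plat and Bub1b, both more than 2-fold higher in deep FGO. All 16 listed genes reached 10 CPM. 2 were called higher in deep FGO (12.5%, against 7.02% over all genes) and 0 lower, and 14 of 16 stood above the median gene, with a median of 0.40 above it (log2). Their summed CPM was 4049 to 8800 in deep cells (median 6322) and 1629 to 5859 in shallow cells (median 3648). 18 of the 29 shallow cells lay below the lowest deep cell. Plat, tissue plasminogen activator, whose stored mRNA is a textbook case of polyadenylation at maturation (chromosome 8, 23868216 to 23893319, plus strand), ranged from 389 to 1891 CPM in deep cells (median 964) and from 100.3 to 1024 in shallow cells (median 407), 2.41-fold. The ratio of its summed UMIs was 2.65 (95% exact interval 2.57 to 2.73). Bub1b, a kinase of the spindle checkpoint (chromosome 2, 118423947 to 118467328, plus strand), ranged from 93.2 to 575 CPM (median 322) and from 5.71 to 355 (median 123.96), 2.44-fold. For both genes 28 of 29 shallow cells lay below the deep median.

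The other members of this list differed by less than 2-fold. Btg4, an adaptor that brings the CCR4-NOT deadenylase to maternal mRNAs (chromosome 9, 50924106 to 50927980, plus strand), came close with 735 to 1699 CPM in deep cells (median 1155) and 187 to 946 in shallow cells (median 678), 1.79-fold. All 29 shallow cells lay below its deep median and 21 below the lowest deep cell. Mos, the kinase that activates the MAP kinase pathway of the egg, had means of 755 and 461 CPM, and Ccnb1, cyclin B1, 1129 and 661 CPM. Tpx2, a spindle assembly factor, and Orc6, a subunit of the origin recognition complex, were nearly level, at 0.18 and 0.04 on the log2 scale, which is under the median gene.

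Regulators of meiotic arrest and resumption followed with a median 0.27 above the median gene over 20 genes at 10 CPM. 1 was called higher in deep FGO (5%, under the 7.02% over all genes), 0 lower, and 16 of 20 stood above the median gene. The one called was Gpr3, the receptor that keeps cyclic AMP high in the arrested oocyte (chromosome 4, 132765255 to 132768451, minus strand). It ranged from 0 to 23.99 CPM in deep cells (median 9.63) and from 0 to 22.9 in shallow cells (median 0), 4.23-fold by the means, and 18 shallow cells were at 0 against 1 deep cell. With cells thinned to 20000 UMIs its means were 5.56 and 3.45 CPM, 1.61-fold and under the limit of 10 CPM, so that it was not called. Fzr1, an activator of the anaphase-promoting complex, fell just short of the limit with a log2 difference of 0.996. Against the direction of the list, Arpp19, an inhibitor of the phosphatase PP2A once phosphorylated, had means of 684 CPM in deep and 940 CPM in shallow FGO. Of 22 genes of the spindle and checkpoint, 1 (Bub1b) was called higher in deep FGO, and the list lay 0.04 below the median gene.

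Genes for storage of maternal mRNA took a larger summed share in deep FGO, with 2279 to 6908 CPM in deep cells (median 4715) and 1492 to 5828 in shallow cells (median 3252), and 25 of 29 shallow cells lay below the deep median. Of 16 storage genes at 10 CPM, 2 were called higher in deep FGO (12.5%, against 7.02% over all genes) and 0 lower. Their median was 0.07 above the median gene by the means over cells, 0.13 by medians, 0.23 by sums of UMIs and 0.36 with cells thinned to 20000 UMIs, but 0.01 below it with a limit at 400000 UMIs. The pair were Zar1l, an RNA-binding protein related to the maternal factor Zar1 (chromosome 5, 151309630 to 151320739, minus strand), and Pabpc1l, the poly(A)-binding protein of oocytes (chromosome 2, 163851186 to 163876274, plus strand). Zar1l lay between 77.8 and 301 CPM in deep (median 166) and between 36.97 and 163 in shallow cells (median 81.2), 2.06-fold. Pabpc1l lay between 9.21 and 126.99 CPM (median 48.5) and between 0 and 52.6 (median 19.4), 2.31-fold. No shallow cell exceeded the deep median of Zar1l, and 1 exceeded that of Pabpc1l. None of 18 genes at 10 CPM among factors of deadenylation and decay was called in either direction; besides Btg4, Cnot3, a CCR4-NOT subunit, had medians of 460 and 633 CPM, Ythdf2, a reader of m6A, 232 and 226 CPM, and Dcp1a, a decapping factor, 205 and 133.3 CPM.

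Within the DNA methylation machinery, 1 of 9 genes at 10 CPM was called, higher in deep FGO (11.1%, against 7.02% over all genes). This was Dnmt3l, the catalytically inactive partner of the de novo methyltransferases, which is needed to set the oocyte methylome (chromosome 10, 77504692 to 77526367, plus strand). Its level ranged from 2.30 to 121.06 CPM in deep cells (median 45.5) and from 0 to 56.6 in shallow cells (median 8.40), 3.57-fold, with 9 shallow cells at 0. The ratio of its summed UMIs was 3.99 (95% exact interval 3.39 to 4.73). 2 shallow cells exceeded the deep median, and 10 lay below the lowest deep cell. Dnmt3a, its catalytic partner, had medians of 242 and 260 CPM and a log2 difference of -0.16. Tet3, the dioxygenase that oxidises 5-methylcytosine in the zygote (chromosome 6, 83312367 to 83391672, minus strand), had medians of 207 and 144.5 CPM, 1.57-fold. Dppa3, which protects the maternal genome from demethylation, ran the other way with means of 6216 and 9406 CPM, so that the summed CPM of the list was higher in shallow FGO (medians 8244 and 11535 CPM) while the median of its log2 differences was 0.21 above the median gene.

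Cytoplasmic ribosomal proteins and the nuclear genes of the respiratory chain took a larger summed share of the UMIs in shallow FGO, with few of their genes past 2-fold, while translation factors had summed medians of 13353 CPM in deep and 12708 in shallow cells. Of 77 cytoplasmic ribosomal protein genes at 10 CPM, only 1 stood above the median gene, and the list had a median of 0.51 below it. Yet a single gene was called, Rps23, and 0 were called higher in deep FGO; 1.30% called lower lies below the 2.12% over all genes. The summed CPM of the list was 21154 to 33608 in deep cells (median 25228) and 22182 to 53921 in shallow cells (median 33452), with 14 shallow cells above the highest deep cell. Rps23, a protein of the small subunit (chromosome 13, 91062727 to 91064329, plus strand), ranged from 144.1 to 977 CPM in deep (median 315) and from 383 to 2908 in shallow cells (median 877), 2.24-fold higher. All 29 shallow cells exceeded its deep median. Ribosomal protein genes have many processed pseudogenes, and how reads were split between copies is not stated.

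Among 81 nuclear genes of the respiratory chain, 3 were called higher in shallow FGO and 0 higher in deep FGO. The share, 3.70%, compares with 2.12% over all genes. The list lay 0.51 below the median gene, with 10 of 81 genes above it. Ndufa1, a subunit of complex I (X chromosome, 34727583 to 34731158, minus strand), ranged from 183 to 568 CPM in deep (median 282) and from 262 to 2106 in shallow cells (median 578), 2.06-fold higher, with 15 shallow cells above the highest deep cell. Uqcc3, an assembly factor of complex III, was 3.35-fold and Cox4i2, an isoform of a complex IV subunit, 2.43-fold higher in shallow FGO, both at low level (shallow medians 8.09 and 6.30 CPM). The larger subunits Ndufs1 and Atp5b stood above the median gene, at 0.61 and 0.40 on the log2 scale. Mitochondrial ribosomal proteins lay 0.26 below the median gene over 77 genes, of which 0 were called in either direction. The median of their log2 differences was -0.06, and it was above 0 in 1 of the 14 alternative settings.

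These lists consist of short transcripts, and transcript length and base composition moved with depth across all genes. The longest annotated transcript had a median length of 858 bases for the ribosomal proteins and 908 for the respiratory chain, against 2814 over the 7241 genes with a record. Genes were ranked and divided into 5 classes of equal size. In the class of the shortest transcripts, up to 1568 bases, the median log2 difference was -0.03, compared with 0.29, 0.35, 0.27 and 0.14 in the classes above it. Across 5 such classes of GC content it went from 0.04 in the lowest, under 43.9% GC, through 0.11, 0.19 and 0.31 to 0.39 in the highest. Genes called higher in deep FGO had a median GC content of 53.1% and those called higher in shallow FGO 46.5%, against 49.3% over all. The part of length and base composition in the differences of the lists was not tested.

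**Figure D4:**
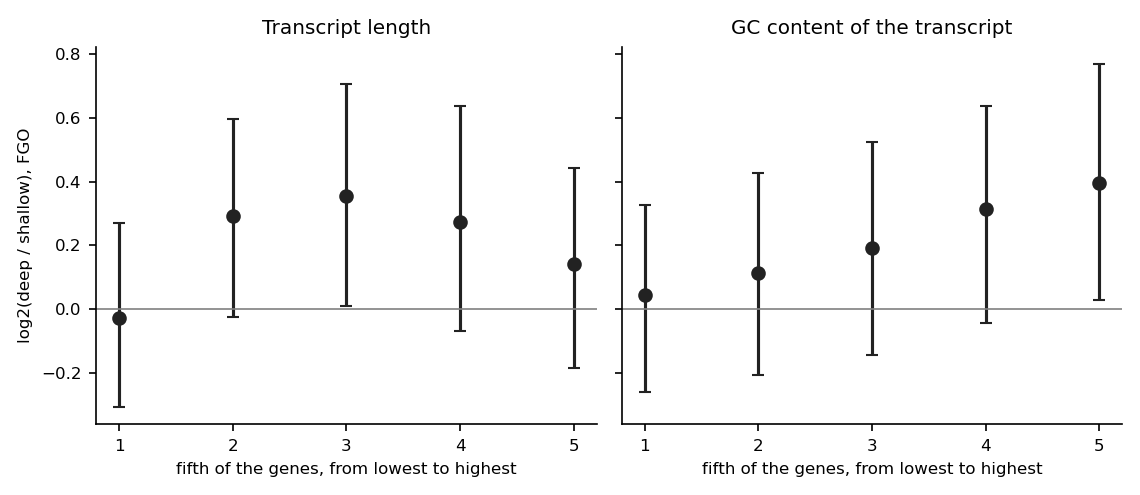
Log2 ratio of mean CPM, deep over shallow FGO, in 5 equal classes of the genes by transcript length (left) and GC content (right); points are medians and bars span the quartiles. The median rises from 0.04 to 0.39 with GC content, and is lowest, at -0.03, in the shortest transcripts.

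Of the oocyte-specific repeated families (Oog, Obox, Oas1, Nlrp4, Nlrp9, Nlrp14, Fbxw, Tcl1 and Pramef genes), 43 genes reached 10 CPM. 3 were called higher in deep FGO and 0 lower, and 37 of 43 stood above the median gene, with a median of 0.27 above it. The share called, 6.98%, was near the 7.02% over all genes. Obox7, an oocyte homeobox gene, lay between 21.7 and 120.98 CPM in deep (median 71.5) and between 0 and 67.04 in shallow cells (median 22.9), 2.68-fold. All 29 shallow cells lay below the deep median. Oas1f (chromosome 5, 121297376 to 121307995, plus strand) was 2.21-fold and Oog4 (chromosome 4, 143027067 to 143040227, minus strand) 2.003-fold higher, with medians of 14.99 against 3.26 and of 540 against 260 CPM. With cells thinned to 20000 UMIs the order of Oas1f turned, with means of 7.41 CPM in deep and 8.62 CPM in shallow FGO, where 1 UMI in a cell is 50 CPM. Members of these families are near-identical in places, so the split of reads between them is uncertain.

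Genes that define the oocyte were detected in both groups, at means from 10.8 (Sohlh2) to 10467 CPM (H1foo) in deep FGO. Of 18 identity genes, 1 (Gpr3) was called (5.56%, against 7.02% over all genes) and the list did not stand apart from the median gene, 0.01 below it. Gdf9, the growth factor that the oocyte secretes to its granulosa cells (chromosome 11, 53244525 to 53251406, plus strand), ranged from 3328 to 7250 CPM in deep (median 5549) and from 1116 to 6729 in shallow cells (median 3715). Zp3, the sperm-binding protein of the zona pellucida (chromosome 5, 136455969 to 136464494, plus strand), ranged from 5524 to 12166 CPM (median 7032) and from 2599 to 14731 (median 8846). Nlrp5, a core member of the subcortical maternal complex (chromosome 7, 24170908 to 24226941, plus strand), had medians of 2793 and 3943 CPM, and 0 of the 8 genes of the complex were called. The other members of that complex named by level were Khdc3 (medians 4122 and 5188 CPM), Zbed3 (2932 and 2804 CPM) and Ooep (2068 and 2544 CPM).

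In the remaining lists 0 to 2 members were called, against 7.02% higher in deep and 2.12% higher in shallow FGO over all genes. H2afx, the histone variant phosphorylated at DNA breaks, was 2.06-fold higher in deep FGO, the only one of 12 replacement and linker histones called (8.33%) and the only one above the median gene, while the list lay 0.29 below it. Psmd3, of the proteasome lid, was 2.15-fold higher in deep FGO, 1 of 35 proteasome genes (2.86%). Dusp1, a phosphatase of MAP kinases (chromosome 17, 26642535 to 26645464, minus strand), had medians of 212 and 81.6 CPM, 2.30-fold, 1 of 8 genes of the stress list (12.5%). Pfkp was the only one called of 16 genes of glycolysis and pyruvate use (6.25%). Sf3a2 was 2.99-fold higher in deep and Hnrnpl 2.23-fold higher in shallow FGO among 46 splicing genes (2.17% in each direction). Eif4ebp1, the inhibitor of the cap-binding protein eIF4E (chromosome 8, 28370799 to 28386128, plus strand), was 2.40-fold higher in shallow FGO, with medians of 27.3 and 51.97 CPM, the only one called of 57 translation factors (1.75%). None of 6 apoptosis genes and none of 4 clustered histone genes at 10 CPM was called in either direction. Bcl2l10, the oocyte's main Bcl2 relative, had medians of 2855 and 1793 CPM, Bcl2l1 87.2 and 53.3 CPM, Bax 91.5 and 93.9 CPM, and Casp8 31.1 and 24.8 CPM.

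**Figure D5:**
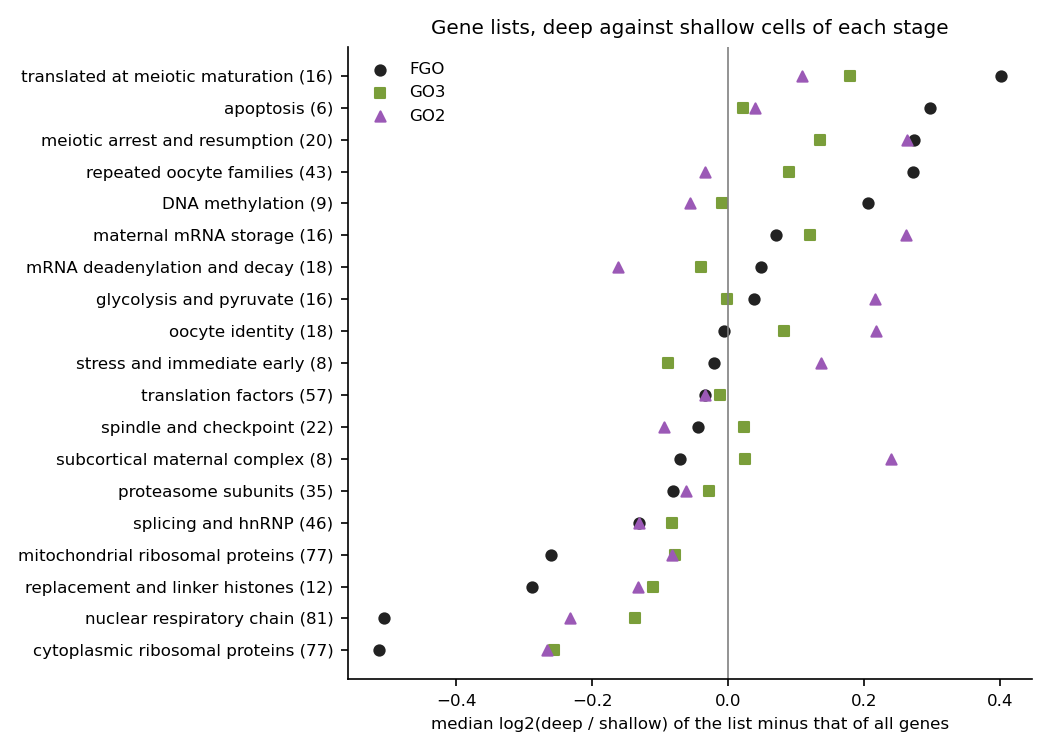
Median log2 ratio of deep over shallow cells in each gene list minus that of all genes, in FGO (circles), GO3 (squares) and GO2 (triangles); the number of list members at 10 CPM in FGO stands behind each name. In FGO the lists run from -0.51 for cytoplasmic ribosomal proteins to 0.40 for mRNAs translated at meiotic maturation.

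Markers of other cells of the ovary were low apart from Serpine2 and Esr2. Of 18 granulosa markers only this pair reached 10 CPM, with medians of 494 and 275 CPM and of 81.8 and 46.2 CPM in deep and shallow FGO. Serpine2 and Esr2 carried most of the list's summed level, 435 to 766 CPM in deep and 112.8 to 613 CPM in shallow cells. Highest after Serpine2 and Esr2 were Nr5a2 and Inha. Their means were 7.74 and 5.77 CPM in deep and 5.53 and 7.47 CPM in shallow cells. The granulosa markers Fshr, Foxl2 and Amh had means of 2.69, 0.18 and 0.03 CPM in deep and 1.44, 0.74 and 0 CPM in shallow cells. The 12 stromal and theca markers summed to a median of 7.32 CPM in deep and 3.06 CPM in shallow cells. Hbb-b1, Hba-a1, Alas2, Ptprc and Cd52 of the blood and immune list were at 0 UMIs in all 56 cells, and 3 UMIs over the sum of a group, the limit that a count of 0 allows, are under 1 CPM. The part of the granulosa markers in the differences above was not tested. No doublet caller was run on these hand-picked cells.

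Some of these genes were spread along depth, and others had similar means in the shallow classes and higher means past the limit. In 5 depth classes of 8, 12, 9, 14 and 13 cells (under 200000 UMIs, then up to 400000, 800000 and 1600000, and above), the mean of Slc45a3 was 100.6, 178, 177, 305 and 791 CPM. Dnmt3l went from 5.09 through 17.8, 14.9 and 30.6 to 66.5 CPM, and Plat from 316 through 457, 460 and 757 to 1287 CPM. Malat1 fell from 3628 through 2397, 2235 and 1374 to 584 CPM. Irf8 had similar means in the 3 shallow classes, 3.39, 3.44 and 2.56 CPM, and 9.82 and 23.9 CPM in the deep ones. Tmem30b, a subunit of phospholipid flippases, likewise had 5.84, 4.47, 4.58, 18.6 and 32.9 CPM, and Glis1 3.39, 4.37, 2.65, 10.99 and 21.5 CPM. Irf8, Tmem30b and Glis1 had only 30, 48 and 33 UMIs over all shallow cells, so their course among the shallow classes is uncertain. For Slc45a3, Dnmt3l, Plat and Malat1 the second and the third class were alike. In CPM, Slc45a3, Dnmt3l and Plat changed most between the deep classes, and Malat1 between the shallowest cells and the next class. By ratio, Dnmt3l changed most between the shallowest cells and the next class, and Malat1 between the deep classes. The ribosomal protein list went from 37183 through 31630, 34686 and 28046 to 24442 CPM, and Gdf9 from 2608 through 4406, 5285 and 5309 to 5954 CPM, so that Gdf9 changed mostly among the shallowest cells.

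Within the groups, Spearman's rho of level with depth was 0.81 among deep and -0.06 among shallow cells for Bub1b, 0.65 and 0.08 for Zar1l, and -0.56 and -0.14 for Malat1. The summed CPM of the 523 genes higher in deep FGO lay between 9396 and 44491 in deep cells (median 25892) and between 2795 and 24236 in shallow cells (median 11120). That of the genes higher in shallow FGO lay between 5952 and 24495 (median 9167) and between 10722 and 74226 (median 24638). Since these genes were chosen by this contrast, the separation is a description and no support. Within the 27 deep cells, Spearman's rho of the 2 sums with depth was 0.89 and -0.87, and within the 29 shallow cells 0.31 and -0.45. These correlations describe cells that share libraries, in ways that are not known. The deep cell with 868792 UMIs had the lowest sum of the first set (9396 CPM) and the highest of the second (24495 CPM), with 2.30 CPM of Dnmt3l and 3355 CPM of Malat1. The shallow cell with 799864 UMIs had 16044 and 14926 CPM.

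Restricting the cells, in settings added after the data were seen, left the direction of most genes in place: between 503 and 523 of the 523 genes stayed higher in deep FGO. Most genes higher in shallow FGO kept their direction too, fewest among cells of 400000 to 1600000 UMIs. Since both sets were chosen over these same cells, the agreement is a description and no support. Among cells numbered 11 to 47, 26 deep against 11 shallow, 746 genes were higher in deep and 220 higher in shallow FGO, including 82.4% and 69.6% of the genes called over all cells. Deep cells against the 10 shallow cells numbered 1 to 10 gave 296 and 77 genes, and 1676 and 444 genes came from the 8 shallow cells numbered 48 to 56. The extent therefore depended on which shallow cells were used. Among cells of 400000 to 1600000 UMIs only, 14 deep against 9 shallow, 240 and 110 genes were called, with 24.7% and 21.5% of the genes called over all cells among them. The median log2 differences of the genes higher in deep and in shallow FGO were then 0.70 and -0.65 instead of 1.21 and -1.24.

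The earlier growth stages, divided at the same limit, showed how far these differences recurred. Growing oocytes of 60 to 65 μm (GO3) held 25 deep cells (median 1418195 UMIs) and 19 shallow cells (median 417803), a 3.39-fold difference of the medians against 4.995-fold in FGO. Few genes differed in GO3: 10 of 7333 were higher in deep (0.136%) and 28 higher in shallow GO3 (0.382%). In GO2, 12 deep and 14 shallow cells, whose median depths differed 4.89-fold, gave 499 of 7044 genes higher in deep (7.08%) and 96 higher in shallow GO2 (1.36%). Of the 523 genes of FGO, 487 reached 10 CPM in GO3 and 453 in GO2. Of these 0 were also called in deep GO3, and 23.6% in deep GO2 (20.5% of the 523 and 21.4% of the GO2 genes). Of the genes higher in shallow FGO, 94 reached 10 CPM in GO3, where 15 were also called (15.96% of the 94, 9.49% of all those genes and 53.6% of the GO3 genes), and 84 in GO2, where 27 were (32.1%, 17.1% and 28.1%). In the opposite direction 1 gene was called in GO3 and 2 in GO2. Among those that reached 10 CPM, the genes higher in deep FGO had a median log2 difference of 0.33 in GO3 and 0.66 in GO2, against 0.07 and 0.19 for all genes, and the genes higher in shallow FGO -0.61 and -0.74. Across genes the log2 differences of FGO had a Spearman's rho of 0.61 with those of GO3 and 0.55 with those of GO2; genes are not independent replicates, and the stages may share libraries. Whether the difference between stages exceeds that between libraries was not tested.

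Named genes were alike in the stages in part. Dnmt3l, Plat and Actb kept the direction they had in FGO, and Malat1 and Rps23 did not in GO2. Dnmt3l had means of 111.3 and 75.7 CPM in deep and shallow GO3, 188 and 103.3 CPM in GO2, and 47.9 and 13.4 CPM in FGO. Plat had 1016 and 704 CPM in GO3 and 1444 and 748 CPM in GO2, and Actb 184 and 376 CPM in GO3 and 135.2 and 188 CPM in GO2. Malat1 was nearly level in both growing stages, with 392 and 459 CPM in GO3 and 129.1 and 126.03 CPM in GO2, although its means in FGO were 994 and 2686 CPM. Rps23 had 203 and 244 CPM in GO3 and, in the other direction, 119.9 and 101.5 CPM in GO2, against 427 and 958 CPM in FGO. The ribosomal protein list lay below the median gene in all 3 stages, by 0.51 in FGO, 0.26 in GO3 and 0.27 in GO2, and the respiratory chain by 0.51, 0.14 and 0.23.

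By root mean square difference, deep FGO were closer than shallow FGO to the means of all 4 earlier stages. Over 8801 genes, the root mean square difference of log2(CPM + 1) to the mean of GO3 was 0.51 for deep and 0.80 for shallow FGO, and Spearman's rho was 0.96 and 0.92. To GO2 the differences were 0.85 and 1.02, to GO1 1.02 and 1.09, and to non-growing oocytes (NGO) 1.01 and 1.03. Spearman's rho was higher for deep FGO with GO2 and GO1. With NGO the order turned, at 0.864 for deep and 0.868 for shallow FGO. The distance between deep and shallow FGO was 0.57, more than that from deep FGO to GO3. Deep FGO held 54081142 UMIs in sum and shallow FGO 10230766, so counting error weighs more on the shallow mean. Its part in these distances was not tested. The mean of GO3 was nearer to deep than to shallow FGO for 68.3% of all 7454 genes, 88.1% of the 523 and 93.04% of those higher in shallow FGO. The last 2 shares follow in part from the choice of the genes. Of the 523 genes, 43.02% were higher in GO3 than in both groups of FGO (31.5% over all genes) and 56.6% lay between them in GO3. Of the genes higher in shallow FGO, 74.7% were lower in GO3 than in both groups (35.4% over all genes). These shares too follow in part from the choice of the genes, which needed 10 CPM only in the higher group. A pair of lists was made without FGO. Among genes 2-fold higher in GO3 than in GO2, 360 reached 10 CPM in FGO. Of these, 32 were called higher in deep (8.89%) and 11 higher in shallow FGO (3.06%), against 7.02% and 2.12% over all genes. The median of the 360 genes was 0.07 below the median gene. Of 92 genes 2-fold higher in GO2 than in GO3, 33 reached 10 CPM in FGO. Of the 33, 1 was called higher in deep (3.03%) and 14 higher in shallow FGO (42.4%), while 18 were not called. A gene of low level in deep FGO reaches 10 CPM through shallow FGO alone, so this count is a description. Akap5, an anchor protein for protein kinase A chosen after its values were seen, had means of 1481 CPM in GO2, 797 in GO3, 457 in deep and 1192 in shallow FGO. These distances carry the same limit, since depth and library cannot be told apart.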

How the data were processed

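Single oocytes were sequenced with UMIs in 4 libraries. Before deposit the authors sorted reads on the cell barcodes, trimmed and aligned them (Tophat, mm9 transcriptome), collapsed copies with the same UMI, kept cells within limits on genes, transcripts and spike-ins, and deposited raw UMI counts per gene and cell for 23201 genes. These counts were used as deposited; ERCC spike-ins and the chromatin and methylation data were not analysed here. The members and the gene lists were chosen with earlier results of these data known.

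FGO were divided at 800000 UMIs. Counts were turned into CPM per cell, averaged over the cells of a group, and called at 2-fold and 10 CPM. The planned named genes were the 12 largest ratios in each direction whose medians also differed 1.5-fold, all list members called, up to 4 members of highest level where none was called, and Dnmt3l, Dnmt3a, Tet3, Gdf9, Zp3 and Nlrp5. Genes named beyond this rule are members of the lists, or are said to be chosen after their values were seen. Log2 differences use the ratio of means. Where a group had 0 UMIs, 3 UMIs over its sum were taken. Intervals are exact (95%; Poisson and binomial split) and cover counting error only. Thinning drew 20000 (or 50000) UMIs per cell without replacement. Transcript length and GC content are those of the longest protein-coding transcript in GENCODE vM1 (NCBIM37, the build of mm9), with 601 of the genes matched through older symbols; a gene without a single record has no position. DESeq2 1.42.0 and edgeR 4.0.16 gave scaling factors only. The call of 2-fold was checked on simulated data, in which cells of a group differed by counting error only. That check does not cover the spread between real cells or libraries. The software was R 4.3.3 and Python 3.11.15 (scipy 1.17.1, pandas 2.3.3, numpy 2.4.6, matplotlib 3.10.9). Alternatives were other limits of depth, sums, medians, thinned cells, scaling factors, other thresholds and subsets of cells.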

Additional observations from a re-analysis of the deposited data

How the results depend on the processing

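No paired analysis was possible because the cells carry no replicate number shared between the groups and the values come from no test. Of the genes compared, 7.02% were higher in deep and 2.12% higher in shallow FGO. These shares were 12.96% and 1.45% by medians over cells, 15.04% and 6.31% with cells thinned to 20000 UMIs (where 1 UMI is 50 CPM), 10.2% and 3.44% at 50000 UMIs, 3.55% and 3.70% with DESeq2 size factors, 3.77% and 3.51% with TMM factors, and 10.47% and 2.96% with a limit of 1600000 UMIs. Without the 5 deepest and 5 shallowest cells they were 3.64% and 0.92%, without a filter on low values 26.6% and 8.41%, at 50 CPM 3.56% and 1.88%, and at 1.5-fold 22.8% and 6.72%. In settings added after the data were seen they were 3.96% and 1.03% against shallow cells numbered 1 to 10, 22.1% and 5.86% against those numbered 48 to 56, and 3.28% and 1.504% among cells of 400000 to 1600000 UMIs. Sums of UMIs (739 and 192 genes), limits at the median cell (517 and 161) or at 400000 UMIs, and cells numbered 11 to 47 (746 and 220) kept the counts within 1.5 times. The cause of these changes was not tested, beyond the fewer or more genes that a threshold admits by construction. Thinned to 20000 UMIs, 64.2% and 70.3% of the genes were called again. The difference in genes detected was 432 at 20000 and 3075 with all UMIs, and that in the coefficient of variation 0.078 at 20000 and 0.092 at 50000 UMIs. The medians of the ribosomal protein and respiratory chain lists stayed below 0 in all 14 settings. Those of the lists translated at maturation, meiotic arrest, DNA methylation, mRNA storage, decay, apoptosis and repeated families stayed above 0 in all 14. Oocyte identity kept its sign in 13 and the subcortical maternal complex in 9. Relative to the median gene, ribosomal proteins, respiratory chain, translated at maturation, meiotic arrest and repeated families kept their side in all 14. DNA methylation fell to -0.003 without the 5 deepest and 5 shallowest cells and to -0.008 among cells numbered 11 to 47. With a limit at 400000 UMIs decay fell to -0.16 and storage to -0.01. Apoptosis fell to -0.01 in cells thinned to 20000 UMIs. Depth limits the shallow cells most, where genes under 10 CPM are often at 0.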
